A study of Mus musculus with 9 samples.

Results

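The nuclear-encoded respiratory chain subunits are the proteins of the mitochondrial electron transport chain and of ATP synthase that are transcribed from the nucleus. They were taken from the gene table by name: the Ndufa, Ndufb, Ndufc, Ndufs and Ndufv genes, the Uqcr genes, the lettered and numbered Cox4 to Cox8 genes, the Atp5 genes, Sdha to Sdhd and Cycs, leaving out names with -ps. This gave 85 genes of 48708, of which 35 were assigned to complex I, 4 to complex II, 8 to complex III, 20 to complex IV and 15 to complex V, with Cycs, which encodes cytochrome c, apart. The rule also took in Atp5s and Atp5sl, 2 genes whose products are not structural subunits. All 85 were protein-coding genes in GENCODE release M21. The assay was RNA sequencing of small intestine of C57BL/6 mice, taken in acute graft-versus-host disease, in which transferred immune cells attack the host. The 9 libraries formed 3 groups of 3: wild type (WT), Ripk3-KO (RIPK3-/-, without functional Ripk3 in any cell of the host) and VilCre-Ripk3fl/fl (Villin-cre RIPK3fl/fl, with Ripk3 flanked by recombination sites and removed by Cre under the Villin promoter, which is active in intestinal epithelium). Every mouse was labelled as postnatal week 8. Ripk3 encodes a kinase of necroptosis, a regulated form of cell death. The labels do not give the genotype of the transferred cells, and do not say whether each library came from a separate mouse, so the p-values rest on the spread between libraries, which may be technical.

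Total counts ran from 25375499 to 41038990 per library. Ripk3 itself was at 113, 114 and 112 CPM (counts scaled to library size) for WT replicates 1 to 3, at 3.88, 3.57 and 3.4 for Ripk3-KO and at 5.54, 7.36 and 6.46 for VilCre-Ripk3fl/fl. It was thus 31.2-fold lower in Ripk3-KO and 17.4-fold lower in VilCre-Ripk3fl/fl, with edgeR adjusted p-values of 1.23e-24 and 5.24e-23. The Ripk3-KO libraries also differed from both other groups in sex-linked genes: Xist, made by the inactive X, averaged 276 ± 5.75 CPM (SD, n = 3) against 8.46 ± 1.99 in WT and 7.5 ± 0.415 in VilCre-Ripk3fl/fl, and Ddx3y of the Y chromosome 0.477 ± 0.213 against 39.8 ± 1.72 and 38.1 ± 4.58. Sex and whole-body deletion therefore cannot be told apart here. The Ripk3-KO samples are also numbered in the deposit apart from those of both other groups. The labels give no batch, so any difference in handling cannot be told apart from the deletion either. The summed level of 11 enterocyte markers, such as Fabp1 and Anpep, ran from 25707 to 25919 CPM for WT, 44637 to 47284 for Ripk3-KO and 40312 to 44618 for VilCre-Ripk3fl/fl, and none of them was at 0 in any group. The sum of 10 exocrine pancreas genes was 1900 to 1920 CPM for WT, 67.7 to 78.1 for Ripk3-KO and 13978 to 15124 for VilCre-Ripk3fl/fl.

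Electrons from NADH enter the chain at complex I and electrons from succinate at complex II. Both reach complex III through ubiquinone, and cytochrome c carries them on to complex IV, which reduces oxygen. Complexes I, III and IV pump protons, and complex V, the ATP synthase, lets them return through its membrane part Fo to drive ATP formation in its F1 head. All but complex II also hold subunits encoded by the mitochondrial genome. In the small intestine the chain supplies absorptive enterocytes, whose nutrient uptake depends on ATP-driven ion pumping. Transcription of the nuclear subunits is known to be driven by NRF1, by GABPA (also called NRF2), by YY1 and by estrogen-related receptors together with coactivators of the PGC-1 family.

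The promoters of 6 members are shown because these genes carry the main results below: Cycs and Sdha as textbook targets of NRF1, Uqcrh and Atp5k as structural subunits with large rises, and Cox8b and Cox7a1 as the tissue-restricted isoforms that rose most in complex IV together with Cox6b2. Each line gives the 250 bases before the RefSeq transcription start (GRCm38.p6), written 5′ to 3′ on the gene's strand. Capitals mark matches to the motifs searched.
Cycs (chr6:50566570-50566819, minus strand): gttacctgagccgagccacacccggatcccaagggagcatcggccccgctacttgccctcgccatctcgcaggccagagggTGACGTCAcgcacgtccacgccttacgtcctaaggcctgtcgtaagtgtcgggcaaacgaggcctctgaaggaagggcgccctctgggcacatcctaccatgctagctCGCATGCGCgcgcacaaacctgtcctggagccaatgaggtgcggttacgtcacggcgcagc
Sdha (chr13:74350241-74350490, minus strand): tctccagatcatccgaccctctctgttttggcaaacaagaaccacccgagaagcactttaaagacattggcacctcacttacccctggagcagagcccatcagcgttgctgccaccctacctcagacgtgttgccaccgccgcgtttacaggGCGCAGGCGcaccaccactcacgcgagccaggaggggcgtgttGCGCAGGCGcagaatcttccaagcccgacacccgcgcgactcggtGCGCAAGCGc
Uqcrh (chr4:116075071-116075320, minus strand): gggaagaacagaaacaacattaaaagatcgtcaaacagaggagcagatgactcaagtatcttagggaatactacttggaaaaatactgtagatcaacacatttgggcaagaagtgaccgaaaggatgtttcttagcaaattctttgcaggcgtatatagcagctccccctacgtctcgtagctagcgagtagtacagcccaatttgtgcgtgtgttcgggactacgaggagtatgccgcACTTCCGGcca
Atp5k (chr5:108434400-108434649, minus strand): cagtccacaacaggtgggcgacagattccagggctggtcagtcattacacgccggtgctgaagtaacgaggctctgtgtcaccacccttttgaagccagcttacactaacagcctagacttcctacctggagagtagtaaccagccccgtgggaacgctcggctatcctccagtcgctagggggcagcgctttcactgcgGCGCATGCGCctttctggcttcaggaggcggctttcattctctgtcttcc
Cox8b (chr7:140900447-140900696, minus strand): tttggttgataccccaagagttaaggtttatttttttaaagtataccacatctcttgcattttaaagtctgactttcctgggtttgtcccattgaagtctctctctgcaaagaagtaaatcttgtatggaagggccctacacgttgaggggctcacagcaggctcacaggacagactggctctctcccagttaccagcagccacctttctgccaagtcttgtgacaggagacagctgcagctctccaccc
Cox7a1 (chr7:30183921-30184170, plus strand): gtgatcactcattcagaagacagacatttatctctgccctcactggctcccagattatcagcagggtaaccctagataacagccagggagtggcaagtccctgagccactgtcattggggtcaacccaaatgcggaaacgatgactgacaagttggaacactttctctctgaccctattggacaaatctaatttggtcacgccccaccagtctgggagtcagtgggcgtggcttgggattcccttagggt

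In the sequence of Cycs the match to the NRF1 motif began at position -61 and that to the cAMP response element (CRE) at -169, counting the start as 1 and the base before it as -1. Sdha held 3 NRF1 matches, at -98, -55 and -10, Uqcrh 1 GABPA match at -11, and Atp5k a pair of overlapping NRF1 matches at -50 and -49 on opposite strands. The windows of Cox8b and Cox7a1 held none of the motifs. RefSeq promoters, from 250 bases before to 50 after the start, were found for 70 of the 85 members, and both strands were searched. The NRF1 letters GCGCANGCG, of which overlapping matches were counted as 1 gene, were in 21 of 70 members (30%), in 13.3% of 12003 promoter-matched genes that entered the test, and in 7.03% of 27025 genes with a promoter. YY1 (AAGATGGCG) was in 11.4% of members and 3.01% of tested genes, CRE (TGACGTCA) in 7.14% and 3.28%, GABPA (CCGGAAGT) in 7.14% and 7.66%, and the estrogen-related receptor motif (TCAAGGTCA) in 2.86% and 0.342%. The 21 members with the NRF1 letters had a median log2 fold change of 0.27 for Ripk3-KO and 0.45 for VilCre-Ripk3fl/fl against WT, and the other promoter-matched members 0.20 and 0.40.

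Levels per transcript length, from the deposited TPM (transcript abundance corrected for gene length and depth), spanned a wide range in WT. The highest members were Cox6b1 of complex IV at 1529 ± 51.1 TPM (SD, n = 3), Cox8a at 1437 ± 34, Atp5a1, the alpha subunit of ATP synthase, at 1300 ± 20.1, Cox4i1 at 1256 ± 21.6 and Atp5l, the g subunit of Fo, at 1256 ± 22.3. Cox4i1 and Atp5l had the same mean, and Cox6b1 stood above Cox8a, and Cox8a above Atp5a1, by more than either SD of the pair. By complex, the median WT level was 196 TPM for complex I, 306 for complex II, 447 for complex III, 477 for complex IV (over the 16 members at 1 TPM or more) and 457 for complex V. In complex I, Ndufb9 was highest at 621 ± 6.68 TPM and Ndufb2 lowest at 20.1 ± 1.54. Both encode accessory subunits of the membrane arm. The gap depends on gene length, as the annotated exons held 1031 bases for Ndufb9 and 5628 for Ndufb2. In CPM, which is not divided by length, they averaged 164 ± 3.24 and 46 ± 3.93 in WT. Cycs was at 226 ± 16.4 TPM. At the low end were the isoforms known from other tissues: Cox6b2 at 7.28 ± 0.706, Cox4i2 at 1.6 ± 0.865, Ndufa4l2 at 1.51 ± 1.01 and Cox6a2 at 0.403 ± 0.593 TPM, with Cox8b and Cox8c listed at 0.

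Most of the subunits were higher in both deletions than in WT. Of the 85 members, 82 had enough counts to be tested, and Cox6a2, Cox7b2 and Cox8c did not. In Ripk3-KO against WT, 54 of 82 (65.9%) rose and 0 fell at an edgeR adjusted p under 0.05, where 27.3% of all 16539 tested genes rose and 28.1% fell. In VilCre-Ripk3fl/fl against WT, 74 of 82 (90.2%) rose and 0 fell, against 27.2% and 28.4% of all tested genes. These calls rest on counts as scaled for the test, and deposited TPM did not always move the same way. Called higher in VilCre-Ripk3fl/fl, Atp5b averaged 975 ± 14.3 TPM there against 1090 ± 10.7 in WT, and Atp5a1 1149 ± 39 against 1300 ± 20.1. The median over members at 1 TPM or more was 296 TPM for WT, 330 for Ripk3-KO and 315 for VilCre-Ripk3fl/fl. The rises were small: the median log2 fold change of the members was 0.24 (1.18-fold) for Ripk3-KO and 0.42 (1.34-fold) for VilCre-Ripk3fl/fl, with medians of 0.01 and 0.02 over all tested genes. The 2 comparisons share the WT libraries, so their values stand side by side and are not independent of each other. In tissue RNA, fewer cells of a type and less RNA per cell cannot be told apart. Of the 11 enterocyte markers, 10 rose and 1 fell in the Ripk3-KO libraries, and 9 rose and 0 fell in those of VilCre-Ripk3fl/fl, with medians of 0.60 and 0.71, and their part in the rise of the subunits was not tested. Other cell type lists also had called members: of 8 T cell markers 5 fell in the Ripk3-KO libraries and 6 in those of VilCre-Ripk3fl/fl, and of 6 cycling genes 5 and 5 fell. Of 5 B and plasma cell markers 3 and 1 fell, where the 1 of VilCre-Ripk3fl/fl is 20%, below the 28.4% of all tested genes. Of 5 erythroid markers 5 and 2 rose. Of 6 macrophage markers 3 rose and 1 fell in Ripk3-KO, while 1 rose and 5 fell in VilCre-Ripk3fl/fl. The part of these cells was not tested. Leaving out the 3 X-linked members, Ndufa1, Ndufb11 and Cox7b, 52 of 79 rose in the Ripk3-KO libraries and 71 of 79 in those of VilCre-Ripk3fl/fl.

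**Figure D1:**
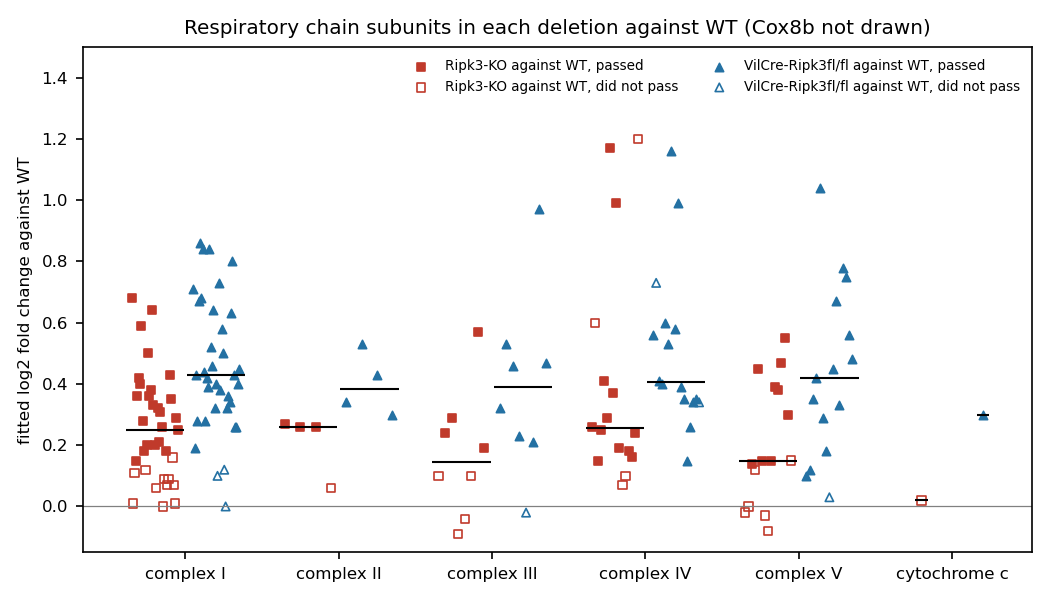
Fitted log2 fold change of each tested subunit against WT, by complex, with squares for Ripk3-KO, triangles for VilCre-Ripk3fl/fl, filled symbols for members that passed the test, and a line at the median of the points drawn. Cox8b, at 9.70 and 6.64, is not drawn, and the VilCre-Ripk3fl/fl median lies above the Ripk3-KO median in each complex.

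As a share of all gene counts, the 85 members took 2.02, 2 and 2.06% for WT replicates 1 to 3, 2.37, 2.22 and 2.22% for Ripk3-KO, and 2.49, 2.38 and 2.33% for VilCre-Ripk3fl/fl. Every library of either deletion was above every WT library, and the deletions overlapped each other. Complex V held the largest part, 0.775 ± 0.0085% for WT (SD, n = 3), 0.829 ± 0.0275% for Ripk3-KO and 0.874 ± 0.0244% for VilCre-Ripk3fl/fl. Complex I took 0.43 ± 0.00608, 0.5 ± 0.0208 and 0.53 ± 0.0248%, and complex IV 0.401 ± 0.00961, 0.471 ± 0.0235 and 0.497 ± 0.0222% in the same order of groups.

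**Figure D2:**
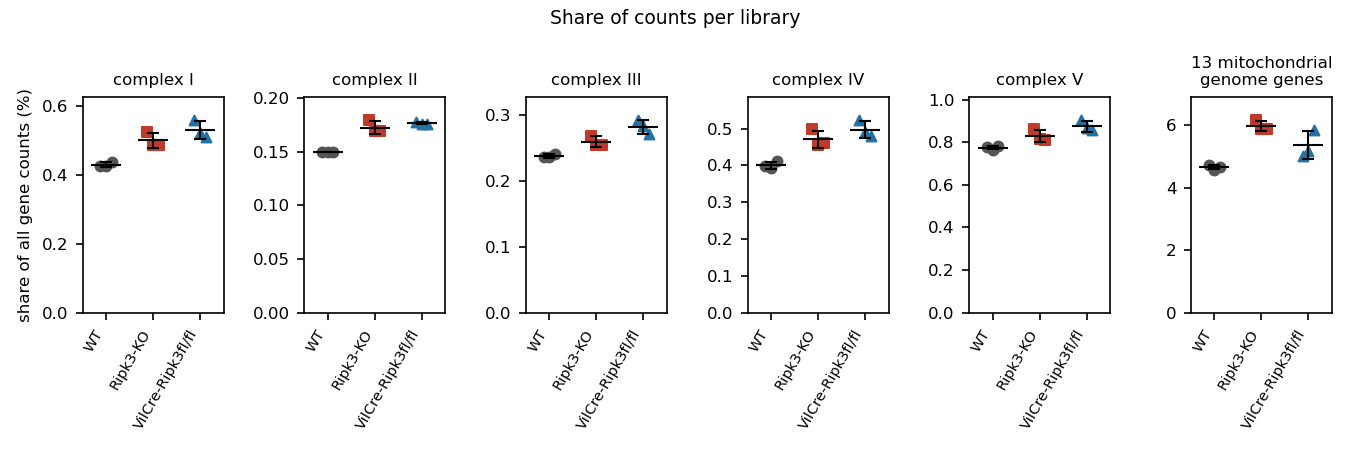
Share of all gene counts (%) taken by each complex and by 13 subunit genes of the mitochondrial genome, 1 point per library with the mean and SD of each group of 3. For complexes I to V all deletion libraries lie above all WT libraries.

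In complex I, 24 of 35 members rose in the Ripk3-KO libraries and 32 of 35 in those of VilCre-Ripk3fl/fl. Ndufb10, an accessory subunit of the membrane arm, was at 181, 193 and 196 CPM for WT, 297, 242 and 270 for Ripk3-KO and 360, 336 and 326 for VilCre-Ripk3fl/fl, so that the 3 groups did not overlap. Its log2 fold change was 0.50 ± 0.061 (SE) for Ripk3-KO and 0.84 ± 0.061 for VilCre-Ripk3fl/fl, with edgeR adjusted p-values of 2.63e-07 and 7.83e-11. Ndufa1, an accessory subunit of the same arm encoded on the X chromosome, had the largest rise of the complex in Ripk3-KO. It was at 42.4, 47.5 and 49.3 CPM for WT, 76.6, 68.6 and 77.4 for Ripk3-KO and 79.3, 72.5 and 76.6 for VilCre-Ripk3fl/fl, where the deletions overlapped and both were above WT. The log2 fold changes were 0.68 ± 0.065 and 0.71 ± 0.066 (edgeR adjusted p = 2.23e-09 and 1.27e-09). Ndufb3, also of the membrane arm, rose by 0.64 ± 0.055 and 0.64 ± 0.056, and Ndufa2 of the matrix arm by 0.42 ± 0.07 and 0.86 ± 0.071.

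The 7 nuclear core subunits of complex I, which together hold the flavin and the iron-sulfur clusters and stand in the matrix arm, had lower medians than the accessory ones, a difference that was not tested. Their coding lengths also differ, from 636 (Ndufs8) to 2181 bases (Ndufs1) for core and from 210 (Ndufa1) to 1404 (Ndufv3) for accessory members. Log2 fold changes went with coding length (below), and the part of length here was not tested. Of the 7 core members 2 (28.6%) rose in the Ripk3-KO libraries, near the 27.3% of all tested genes, with a median of 0.09. In those of VilCre-Ripk3fl/fl 6 (85.7%) rose, against 27.2% of all tested genes, with a median of 0.32. Of the 28 accessory members 22 (78.6%) and 26 (92.9%) rose, with medians of 0.30 and 0.46. Ndufs1, the largest iron-sulfur subunit, was at 164, 160 and 158 CPM for WT, 173, 173 and 166 for Ripk3-KO and 148, 165 and 167 for VilCre-Ripk3fl/fl, and passed in neither comparison (edgeR adjusted p = 0.128 and 0.985). It overlaps the more abundant Eef1b2, which had 140235 counts over all libraries against 47419, on the opposite strand. In all, 32 of the 85 members overlap another annotated gene, and whether counting used strand is unknown. Ndufv1, which binds NADH, was at 225, 226 and 231 CPM for WT, 236, 221 and 229 for Ripk3-KO and 279, 280 and 257 for VilCre-Ripk3fl/fl. Only the VilCre-Ripk3fl/fl values of Ndufv1 lay above WT without overlap, with log2 fold changes of 0.01 ± 0.047 (edgeR adjusted p = 0.852) in Ripk3-KO and 0.26 ± 0.047 (edgeR adjusted p = 4.83e-05) in VilCre-Ripk3fl/fl. By position, the 19 members of the membrane arm had medians of 0.32 for Ripk3-KO and 0.50 for VilCre-Ripk3fl/fl, and the 16 of the matrix arm 0.18 and 0.38.

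In complex II, which also works in the tricarboxylic acid cycle, 3 of 4 members rose in the Ripk3-KO libraries and 4 of 4 in those of VilCre-Ripk3fl/fl. Sdha, the flavoprotein that oxidises succinate, was at 554, 555 and 556 CPM for WT, 679, 655 and 679 for Ripk3-KO and 680, 715 and 708 for VilCre-Ripk3fl/fl. Against WT it stood at log2 fold changes of 0.27 ± 0.042 and 0.34 ± 0.042 (edgeR adjusted p = 5.41e-06 and 2.58e-07), and the WT libraries lay within 2 CPM of each other. The iron-sulfur subunit Sdhb rose by 0.26 ± 0.055 and 0.53 ± 0.055. The membrane anchors Sdhc and Sdhd rose by 0.43 ± 0.05 and 0.30 ± 0.048 in VilCre-Ripk3fl/fl, while in Ripk3-KO Sdhc rose by 0.26 ± 0.05 and Sdhd was at 0.06 ± 0.048 (edgeR adjusted p = 0.278).

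In complex III, 4 of 8 members rose in the Ripk3-KO libraries and 7 of 8 in those of VilCre-Ripk3fl/fl. Uqcrh, the hinge protein at the cytochrome c docking side, was at 327, 319 and 347 CPM for WT, 542, 463 and 474 for Ripk3-KO and 710, 642 and 598 for VilCre-Ripk3fl/fl. No group overlapped another for Uqcrh, and its log2 fold changes were 0.57 ± 0.064 and 0.97 ± 0.064 (edgeR adjusted p = 3.15e-07 and 1.94e-10). The large core proteins Uqcrc1 and Uqcrc2 did not follow it in Ripk3-KO. Uqcrc1 was at 611, 596 and 589 CPM for WT, 572, 556 and 557 for Ripk3-KO and 701, 728 and 671 for VilCre-Ripk3fl/fl, so that its Ripk3-KO values lay below WT and its VilCre-Ripk3fl/fl values above. The log2 fold changes of Uqcrc1 were -0.09 ± 0.044 in Ripk3-KO, which did not pass (edgeR adjusted p = 0.0774), and 0.23 ± 0.044 in VilCre-Ripk3fl/fl (edgeR adjusted p = 0.000107). In Ripk3-KO, Uqcrc1 was past the threshold as lower in 5 other settings, among them DESeq2 (adjusted p = 0.0383) and limma-voom (adjusted p = 0.0461), and over all settings its adjusted p ran from 0.0383 to 0.536. Uqcrc2 passed in neither comparison, at -0.04 ± 0.046 and -0.02 ± 0.046. The Rieske iron-sulfur protein Uqcrfs1 was at 0.10 ± 0.049 (edgeR adjusted p = 0.0878) in Ripk3-KO and rose by 0.21 ± 0.049 in VilCre-Ripk3fl/fl. Cycs was at 293, 306 and 338 CPM for WT, 339, 294 and 317 for Ripk3-KO and 375, 377 and 402 for VilCre-Ripk3fl/fl. WT and Ripk3-KO overlapped for Cycs, at 0.02 ± 0.056 (edgeR adjusted p = 0.782), and it rose by 0.30 ± 0.056 in VilCre-Ripk3fl/fl (edgeR adjusted p = 8.03e-05).

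**Figure D3:**
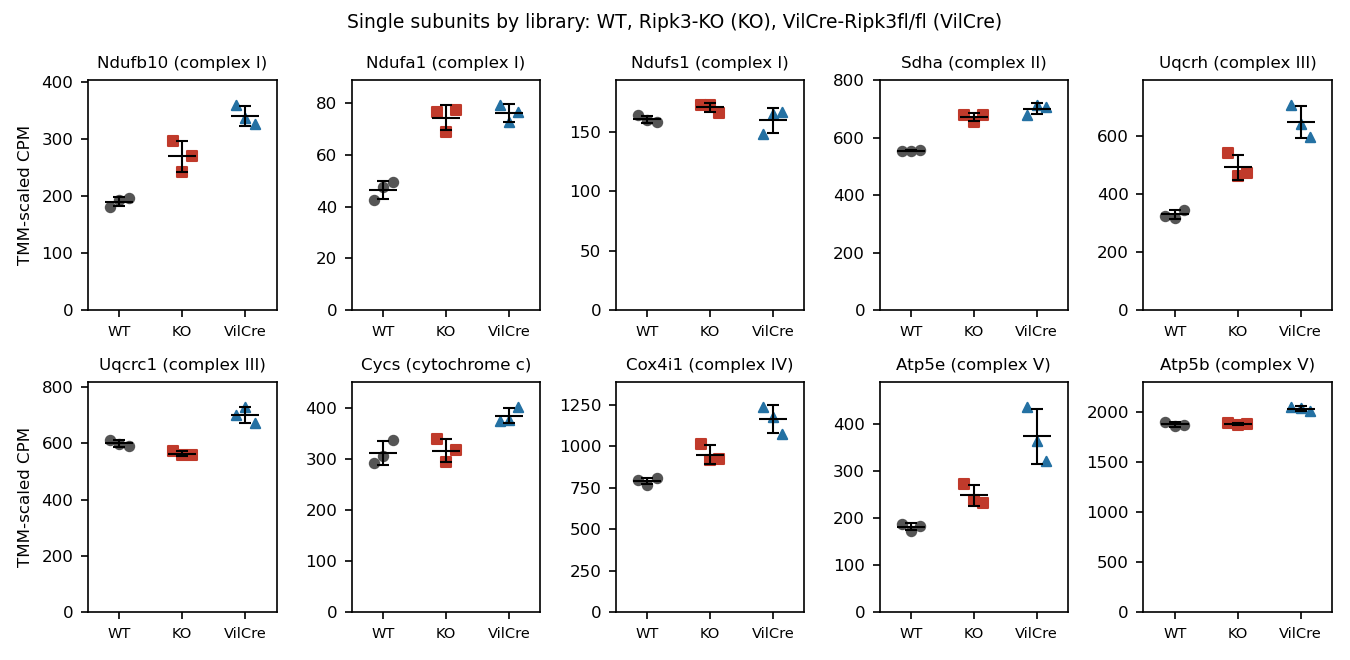
Level of 10 subunits in each library (CPM scaled by TMM, from 0), with the mean and SD of each group of 3. The 3 groups do not overlap for Uqcrh, Ndufb10, Atp5e, Cox4i1, Sdha and Uqcrc1, the last with Ripk3-KO lowest. Atp5b runs from 1855 to 1902 CPM in WT and from 1867 to 1892 in Ripk3-KO.

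In complex IV, 13 of 17 tested members rose in the Ripk3-KO libraries and 15 of 17 in those of VilCre-Ripk3fl/fl. Cox4i1, the common form of subunit 4, was at 797, 767 and 807 CPM for WT, 1013, 916 and 920 for Ripk3-KO and 1236, 1178 and 1074 for VilCre-Ripk3fl/fl, and no group overlapped another. The fitted log2 fold changes were 0.26 ± 0.052 and 0.56 ± 0.052 (edgeR adjusted p = 0.000107 and 1.44e-09). The span of Cox4i1, with 274685 counts over all libraries, overlaps Emc8 on the opposite strand (10690 counts) and Gm20388 on its own strand (11539). Whether these genes share reads was not tested. Cox6a1 rose by 0.41 ± 0.053 and 0.60 ± 0.053. Ndufa4, a complex IV subunit first assigned to complex I, rose by 0.24 ± 0.054 and 0.35 ± 0.054. Cox7a2l, which joins complexes III and IV in supercomplexes, was at 0.07 ± 0.053 (edgeR adjusted p = 0.296) in Ripk3-KO and rose by 0.35 ± 0.053 in VilCre-Ripk3fl/fl.

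In Ripk3-KO, the called members with the largest rises were isoforms of complex IV subunits known from other tissues. Cox8b, the heart, skeletal muscle and brown fat form of subunit 8 in mouse, had 0 counts in each WT library, 125, 106 and 150 for Ripk3-KO and 8, 10 and 12 for VilCre-Ripk3fl/fl. These counts are 3.36, 2.8 and 3.54 CPM for Ripk3-KO and 0.338, 0.381 and 0.431 for VilCre-Ripk3fl/fl, and the 3 groups did not overlap. Against a floor of 3 counts per library in WT, Cox8b was at least 33.3-fold higher in Ripk3-KO and at least 3.94-fold higher in VilCre-Ripk3fl/fl (edgeR adjusted p = 4.68e-11 and 3.63e-06), for counting error only. The common form Cox8a was at 328, 308 and 317 CPM for WT, 376, 343 and 346 for Ripk3-KO and 414, 402 and 392 for VilCre-Ripk3fl/fl. By TPM, Cox8b made up 1.36 ± 0.155% (SD, n = 3) of subunit 8 transcripts for Ripk3-KO and 0.144 ± 0.0212% for VilCre-Ripk3fl/fl, and was listed at 0 in WT.

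Several summed lists followed the order of Cox8b over the groups, among them the white fat and the skeletal and heart muscle markers. The summed brown fat markers did not, though 2 of the 3 tested did. The summed level of 10 white fat markers, such as Adipoq and Retn, was 143 to 156 CPM for WT, 276 to 298 for VilCre-Ripk3fl/fl and 1663 to 1792 for Ripk3-KO, and 10 of 10 rose in each deletion. Slc7a10 had 0 counts in WT. Of 5 brown fat markers, Ucp1 had 0 counts in WT and VilCre-Ripk3fl/fl and was seen in 1 Ripk3-KO library at 0.0538 CPM, while Cidea and Otop1 rose and Dio2 fell in both deletions. Between the deletions Cidea and Otop1 were higher in Ripk3-KO, and Dio2 did not pass. The sum of the 5 was 5.95 to 8.18 CPM for WT, 3.31 to 4.65 for Ripk3-KO and 0.718 to 1.82 for VilCre-Ripk3fl/fl. The sum of 12 skeletal and heart muscle markers was 24.7 to 28.3 CPM for WT, 66.8 to 73.4 for Ripk3-KO and 52.3 to 55 for VilCre-Ripk3fl/fl, where Myh1 had 0 counts, and 5 and 3 of the 8 tested rose. The part of these tissues in the Cox8b counts was not tested.

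Cox7a1, the muscle form of subunit 7a, was at 35.1, 29.2 and 35.9 CPM for WT, 74.7, 59.9 and 64.5 for Ripk3-KO and 73.5, 67.8 and 57.6 for VilCre-Ripk3fl/fl. Both deletions were above WT and overlapped each other, with log2 fold changes of 0.99 ± 0.1 and 0.99 ± 0.11 (edgeR adjusted p = 1.53e-06 and 1.9e-06). Its common partner Cox7a2 rose by 0.19 ± 0.067 and 0.39 ± 0.067, the first with an edgeR adjusted p of up to 0.146 when 1 library was left out. By TPM, Cox7a1 was 17.7 ± 1.37% of the pair for WT, 27.4 ± 0.388% for Ripk3-KO and 24.7 ± 1.72% for VilCre-Ripk3fl/fl. Smooth muscle markers also rose against WT: 10 of 10, such as Acta2 and Myl9, rose in each deletion, and none of the 10 had 0 counts in a group. Between the deletions 7 of the 10 were higher in Ripk3-KO, while Cox7a1 was at 0.00 ± 0.1. Their summed level was 1856 to 1904 CPM for WT, 4418 to 4853 for Ripk3-KO and 3833 to 3994 for VilCre-Ripk3fl/fl. Pericyte markers summed to 154 to 160, 403 to 433 and 296 to 334 CPM in the same order, a sum held mostly by Rgs5. Of the 6 pericyte markers tested, 4 rose and 0 fell in Ripk3-KO, while 3 rose and 1, Abcc9, fell in VilCre-Ripk3fl/fl, and Pdgfrb and Kcnj8 passed in neither. The part of these cells in the Cox7a1 level was not tested.

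Cox6b2, known as the testis form of subunit 6b, was at 3.37, 2.9 and 3.57 CPM for WT, 6.46, 7.18 and 8.45 for Ripk3-KO and 7.49, 7.32 and 7.18 for VilCre-Ripk3fl/fl. Its log2 fold changes were 1.17 ± 0.16 and 1.16 ± 0.16 (edgeR adjusted p = 7.53e-07 and 1.19e-06), and it made up at most 1.04% of subunit 6b transcripts by TPM in any library. The 6 testis germ cell markers summed to 0.832 CPM or less in every library. The hypoxia-linked isoforms were scarce, and neither passed in the comparisons with WT. Cox4i2, the lung form of subunit 4, had 24, 6 and 18 counts for WT, 36, 22 and 34 for Ripk3-KO and 26, 14 and 26 for VilCre-Ripk3fl/fl. Ndufa4l2, a paralog of Ndufa4 induced by low oxygen, had 26, 26 and 4 counts for WT, 36, 72 and 52 for Ripk3-KO and 34, 7 and 16 for VilCre-Ripk3fl/fl, and overlaps the far more abundant Shmt2 on the opposite strand. Its log2 fold change in Ripk3-KO was 1.20 ± 0.56 (edgeR adjusted p = 0.0748), and it was past the threshold in 5 other settings, among them limma-voom. Cox6a2 and Cox7b2 had too few counts to test, with at most 16 and 1 in a library, and Cox8c had 0 in all.

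**Figure D4:**
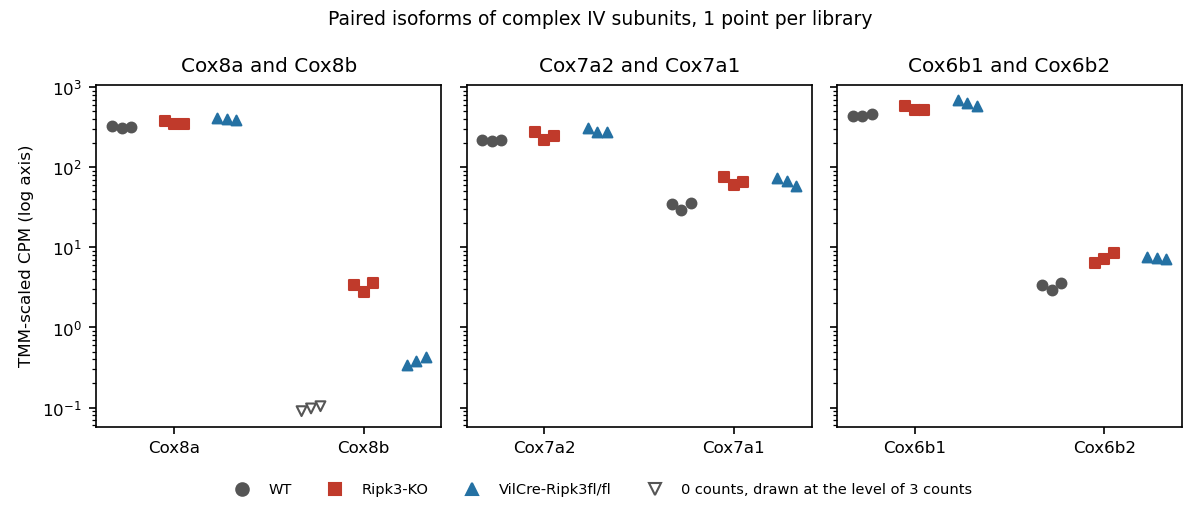
Level of 3 pairs of complex IV isoforms in each library (CPM scaled by TMM, log axis), with the common form on the left and the tissue-restricted form on the right of each panel. Open triangles mark the WT libraries with 0 counts of Cox8b, drawn at the level of 3 counts.

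In complex V, 9 of 15 members rose in the Ripk3-KO libraries and 14 of 15 in those of VilCre-Ripk3fl/fl. Atp5e, the small epsilon subunit of the F1 head, was at 187, 173 and 184 CPM for WT, 273, 239 and 233 for Ripk3-KO and 436, 363 and 321 for VilCre-Ripk3fl/fl. The log2 fold changes were 0.45 ± 0.11 and 1.04 ± 0.11 (edgeR adjusted p = 0.00626 and 3.55e-05). The alpha and beta subunits of the same head, which form the catalytic sites, moved far less. Atp5b, the beta subunit, was at 1902, 1855 and 1868 CPM for WT, 1892, 1867 and 1881 for Ripk3-KO and 2050, 2042 and 2007 for VilCre-Ripk3fl/fl. Against WT it stood at log2 fold changes of 0.00 ± 0.041 (edgeR adjusted p = 0.943) and 0.12 ± 0.041 (edgeR adjusted p = 0.0176), and Atp5a1 at -0.02 ± 0.041 (edgeR adjusted p = 0.744) and 0.10 ± 0.041 (edgeR adjusted p = 0.0463). The VilCre-Ripk3fl/fl calls of both did not hold under some other settings, where the edgeR, DESeq2 or limma adjusted p reached 0.0912 for Atp5b and 0.183 for Atp5a1. The gamma subunit Atp5c1 rose by 0.14 ± 0.049 and 0.35 ± 0.049, the first with an edgeR adjusted p of up to 0.117 when 1 library was left out.

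The 3 small Fo subunits Atp5j2, Atp5k and Atp5l rose in both deletions, with medians of 0.47 and 0.75. Atp5k, subunit e, was at 119, 116 and 126 CPM for WT, 195, 167 and 167 for Ripk3-KO and 217, 191 and 201 for VilCre-Ripk3fl/fl. The fitted log2 fold changes were 0.55 ± 0.061 and 0.75 ± 0.061 (edgeR adjusted p = 4.72e-08 and 2.59e-10), with Ripk3-KO and VilCre-Ripk3fl/fl overlapping. Subunit c, whose ring turns with the passage of protons, is encoded by 3 genes for the same mature protein, and they differed. Atp5g3 rose by 0.15 ± 0.052 and 0.45 ± 0.052, and its Ripk3-KO call was lost without WT replicate 1, WT replicate 2 or Ripk3-KO replicate 1 (edgeR adjusted p of up to 0.117). Atp5g1 was at -0.03 ± 0.053 (edgeR adjusted p = 0.663) in Ripk3-KO and rose by 0.18 ± 0.053 in VilCre-Ripk3fl/fl, and Atp5g2 passed in neither comparison, at -0.08 ± 0.05 and 0.03 ± 0.05. By TPM, Atp5g3 was 66.7 ± 0.766% of subunit c transcripts for WT, 69.9 ± 1.33% for Ripk3-KO and 72.1 ± 1.74% for VilCre-Ripk3fl/fl. These shares depend on gene length. In WT, Atp5g1 and Atp5g2 were 10.4% and 22.9% by TPM but averaged 251 and 189 CPM, and Atp5g3 was highest by both measures. Of the 2 members that are not structural subunits, Atp5sl, a complex I assembly factor, rose in both deletions, and Atp5s passed in neither comparison.

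The deletions were also compared directly. In Ripk3-KO against VilCre-Ripk3fl/fl, 58 of 82 members (70.7%) were lower and 1, Cox8b, was higher, where 15.1% of all tested genes were lower and 16.6% higher. The median log2 fold change of the members was -0.20, against 0.01 over all tested genes. Without Ripk3-KO replicate 3, 37 members were lower. By complex, 26 of 35 members of complex I, 3 of 4 of complex II, 6 of 8 of complex III, 9 of 17 of complex IV and 13 of 15 of complex V were lower, as was Cycs at -0.28 ± 0.056 (edgeR adjusted p = 0.000386). Among the members that were lowest in Ripk3-KO within their complexes were Atp5e at -0.59 ± 0.11, Ndufs6 of the matrix arm at -0.46 ± 0.063, Ndufa2 at -0.44 ± 0.07 and Uqcrh at -0.40 ± 0.064. Cox8b was higher in Ripk3-KO by 3.06 ± 0.37 on the log2 scale (edgeR adjusted p = 5.32e-07). Cox7a1, Cox6b2, Ndufa1 and Ndufb3 were at 0.00 ± 0.1, 0.01 ± 0.15, -0.04 ± 0.064 and 0.00 ± 0.054, and none of the 4 passed. The same contrast separates the groups by sex-linked genes and by pancreas genes, of which 10 of 10 were lower in Ripk3-KO. White fat markers were higher in Ripk3-KO for 10 of 10, erythroid markers for 5 of 5 and smooth muscle markers for 7 of 10, and of 11 enterocyte markers 7 were higher and 4 lower. The part of these tissues was not tested.

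Log2 fold changes of the members against WT were larger at shorter coding lengths. The coding length of the members ran from 156 bases (Atp5e) to 2181 (Ndufs1). Of the 21 tested members of up to 300 coding bases, 18 rose in the Ripk3-KO libraries and 20 in those of VilCre-Ripk3fl/fl, with medians of 0.37 and 0.53. Of the 4 over 1500 bases, 1 and 3 rose, with medians of 0.05 and 0.11. Across the 82 members, Spearman's rho between coding length and log2 fold change was -0.46 for Ripk3-KO and -0.41 for VilCre-Ripk3fl/fl, a description across genes that share the same libraries. Among the 15067 other tested protein-coding genes it was -0.00 and -0.09. The 305 other genes of up to 300 bases also had positive medians, 0.11 and 0.25, with 35.7% and 42.6% higher. Within that length class the members had 85.7% and 95.2% higher, a difference from the other genes that was not tested. In Ripk3-KO against VilCre-Ripk3fl/fl, 31.1% of the other genes of this class were lower and 10.8% higher, with a median of -0.16. The members of the class were lower for 66.7%, with a median of -0.21, and this difference was not tested either. Spearman's rho in that comparison was 0.02 for the members and 0.14 for the other genes.

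**Figure D5:**
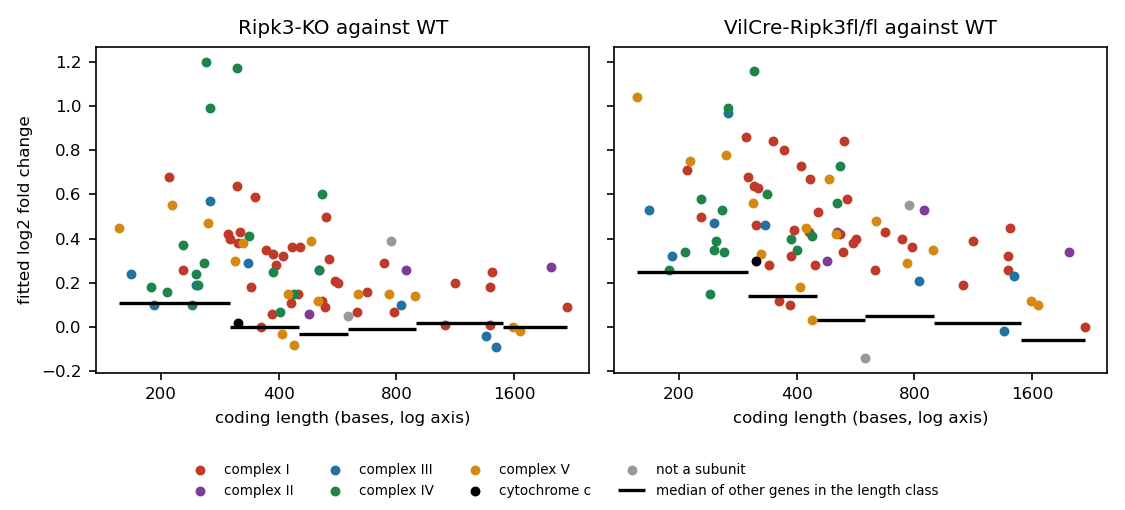
Fitted log2 fold change against WT by coding length (bases, log axis), 1 point per tested member other than Cox8b, coloured by complex, with black lines at the median of other protein-coding genes of the same length class. The points fall from left to right in both panels, and most lie above the black lines.

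The subunits encoded by the mitochondrial genome also rose: 12 of 13 in the Ripk3-KO libraries and 11 of 13 in those of VilCre-Ripk3fl/fl, with medians of 0.44 and 0.39. Their share of counts was 4.58 to 4.72% for WT, 5.87 to 6.15% for Ripk3-KO and 5.02 to 5.86% for VilCre-Ripk3fl/fl. mt-Cytb, the cytochrome b of complex III, was at 3863, 3714 and 3735 CPM for WT, 5925, 5697 and 5625 for Ripk3-KO and 4969, 5398 and 6113 for VilCre-Ripk3fl/fl. The ratio of nuclear member counts to these mitochondrial counts was 0.435 ± 0.00569 for WT, 0.38 ± 0.00529 for Ripk3-KO and 0.451 ± 0.049 for VilCre-Ripk3fl/fl (SD, n = 3). The Ripk3-KO ratios thus lay below all WT ratios, and the VilCre-Ripk3fl/fl ratios overlapped them.

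Other mitochondrial lists are read against the shares of all tested genes that rose and fell, 27.3% and 28.1% for Ripk3-KO and 27.2% and 28.4% for VilCre-Ripk3fl/fl. Of 5 further subunits and ATP synthase partners outside the name rule, 4 and 5 rose, among them Ndufab1 by 0.42 ± 0.056 and 0.53 ± 0.056 and the ATP synthase inhibitor Atpif1 by 0.45 ± 0.054 and 0.73 ± 0.055. Of 44 tested assembly factors, 13 rose and 3 fell in the Ripk3-KO libraries and 20 rose and 3 fell in those of VilCre-Ripk3fl/fl. The assembly factors that rose were thus 29.5% in Ripk3-KO, near the share of all genes, and 45.5% in VilCre-Ripk3fl/fl. Sco2, a copper chaperone of complex IV that overlaps Tymp and Ncaph2 in the annotation, rose by 2.13 ± 0.14 and 2.15 ± 0.14. Coa3, a complex IV assembly factor, rose by 0.35 ± 0.059 and 0.63 ± 0.059, and Cox18, a membrane insertase for a mitochondrially made subunit, fell by 0.40 ± 0.14 and 0.61 ± 0.15. Of 14 genes of the tricarboxylic acid cycle, 6 rose and 1 fell in the Ripk3-KO libraries and 8 rose and 2 fell in those of VilCre-Ripk3fl/fl. Ogdh, of the oxoglutarate dehydrogenase complex, rose by 0.36 ± 0.05 and 0.50 ± 0.05, and Suclg2, a succinyl-CoA ligase subunit, fell by 0.33 ± 0.053 and 0.19 ± 0.053. Of 21 genes of import, carriers, chaperones and membrane shape, 4 rose and 12 fell, and 4 rose and 7 fell. The import receptor Tomm20 fell by 0.59 ± 0.054 and 0.60 ± 0.055.

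The 16 transcription factors and coactivators of mitochondrial genes moved in both directions: 3 rose and 4 fell in the Ripk3-KO libraries, and 5 rose and 6 fell in those of VilCre-Ripk3fl/fl. These are 18.8% and 25% of the list for Ripk3-KO, both below the shares of all genes, and 31.2% and 37.5% for VilCre-Ripk3fl/fl, both above them. Ppargc1a, the coactivator PGC-1 alpha, was at 16.8, 16.3 and 17.2 CPM for WT, 29.4, 29.3 and 31.7 for Ripk3-KO and 32.6, 31.9 and 33.6 for VilCre-Ripk3fl/fl. It rose by 0.85 ± 0.076 and 0.96 ± 0.077 (edgeR adjusted p = 6.15e-10 and 8.74e-11), with both deletions above WT in every library. Esrra, the estrogen-related receptor alpha, was at 0.09 ± 0.046 (edgeR adjusted p = 0.108) in Ripk3-KO and rose by 0.34 ± 0.046 in VilCre-Ripk3fl/fl. Gabpa fell by 0.42 ± 0.075 and 0.55 ± 0.077, and overlaps the member Atp5j on the opposite strand. Nrf1, given because its motif was searched, passed in neither comparison, at -0.15 ± 0.072 and -0.12 ± 0.074. Of 12 hypoxia-response genes, 3 rose and 6 fell in the Ripk3-KO libraries and 4 rose and 7 fell in those of VilCre-Ripk3fl/fl, among them the glucose transporter Slc2a1, which fell by 1.79 ± 0.083 and 1.66 ± 0.085.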

How the data were processed

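Total RNA of small intestine was made into libraries that keep strand. The labels' protocols name both a ribosomal RNA depletion kit and a poly(A) mRNA kit, so which RNA was selected is uncertain. The submitters' processing notes name Trimmomatic, STAR, HTSeq, DESeq2 and mm10, with versions and roles not given in the sources used here. Nothing states if counting heeded strand. The deposited table gives whole-number read counts and TPM per gene. The counts went into edgeR 4.0.16 (R 4.3.3): filterByExpr by group, TMM factors of 0.932 to 1.043, then a quasi-likelihood model with robust dispersions and a mean for each group over the 9 libraries (6 residual degrees of freedom, prior count 0.125). Tests were 2-sided, with Benjamini-Hochberg adjustment over 16539 genes. "Rose" and "fell" mean an adjusted p under 0.05. Deposited TPM, which carries no depth, was used for levels per length and isoform shares. Intervals, SE and floors of 3 counts take no account of PCR duplicates. Values are given for isoform sets, core subunits, the 2 members of each complex with the largest called change in each direction, members past 2-fold, and up to 2 genes per direction of each list. Members and lists were chosen with earlier results of these data known. Pseudogenes under other names may share reads with members. Simulated counts were used to test the procedure. Replicates of a group differed by more than sampling noise, so each library was counted. Alternatives were RLE and upper-quartile scaling, TMM without tissue lists, other filters, fits of 2 groups, DESeq2 1.42.0, limma 3.58.1 (voom), a replicate block, and leaving out X and Y genes or each library in turn.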

Additional observations from a re-analysis of the deposited data

How the results depend on the processing

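Over the alternatives that kept all libraries, 52 to 65 members rose for Ripk3-KO and 71 to 76 for VilCre-Ripk3fl/fl, and 49 to 59 were lower in Ripk3-KO than in VilCre-Ripk3fl/fl. With each library left out in turn these counts ran from 48 to 59, from 70 to 75 and from 37 to 64, and the members higher in Ripk3-KO than in VilCre-Ripk3fl/fl from 1 to 2. The lowest, 37, came without Ripk3-KO replicate 3. The members lower in Ripk3-KO than in WT were 0, but 1 with only the 2 groups compared, with DESeq2 and with limma-voom, and 0 to 1 with a library left out. With genes of the mitochondrial genome out of the total, the members' share of counts was 2.13% for WT, 2.42% for Ripk3-KO and 2.54% for VilCre-Ripk3fl/fl, higher because the total is smaller. With the replicate number as a block, 58 members rose for Ripk3-KO and 74 for VilCre-Ripk3fl/fl with 0 lower in each, and 1 was higher and 58 lower in Ripk3-KO against VilCre-Ripk3fl/fl, with medians of 0.24, 0.42 and -0.20. The numbers share no more than a name: deviations of same-numbered libraries correlated at -0.04 to 0.09, and 2 of 9 libraries correlated best with their own number. Under the block Ndufa4l2 and Atp5o also passed as higher in Ripk3-KO, as they did in 5 and 9 settings in all, the block included.

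The values whose sign changed had not passed the test, and the cause was not tested. All lay within 0.10 of 0 but those of the scarce Cox4i2 and Ndufa4l2. In Ripk3-KO against WT, upper-quartile scaling gave 0.04 for Atp5a1 and 0.03 for Atp5g1, and no filter beyond 1 read gave -0.00 for Atp5b. Leaving out libraries gave -0.01 to 0.03 for Ndufv1, -0.03 to 0.08 for Cycs, -0.01 to 0.01 for Atp5b and -0.08 to 0.01 for Atp5g1. In VilCre-Ripk3fl/fl against WT, Ndufs1 was at 0.01 with RLE size factors, with only the 2 groups and with DESeq2, at 0.04 with upper-quartile scaling and at 0.02 with a filter of 1 CPM in 3 libraries. Leaving out libraries gave -0.03 to 0.05 for Ndufs1, -0.49 to 0.74 for Ndufa4l2 and -0.02 to 0.05 for Atp5g2. In Ripk3-KO against VilCre-Ripk3fl/fl, RLE size factors, the 1 CPM filter and DESeq2 each gave -0.01 for Ndufb3, -0.00 for Cox6b2 and -0.01 for Cox7a1, and the replicate block gave -0.00 for Cox7a1. Leaving out libraries gave -0.08 to 0.02 for Ndufa1, -0.04 to 0.05 for Ndufb3, -0.38 to 0.09 for Cox4i2, -0.10 to 0.09 for Cox6b2 and -0.09 to 0.08 for Cox7a1. Low counts limit Cox4i2, Ndufa4l2 and Cox8b, and depth does not show differences in Cox6a2, Cox7b2 and Cox8c.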
